A study of Mus musculus with 6 samples.

Results

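Classical monocytes of the mouse lung at postnatal day 21 were taken as the cells that the authors' deposited annotation names Classical Monocytes. There were 1469 such cells among 33061 cells with a class in the 4 day 21 libraries. All 6 libraries of the series held 55882 cells with a class. The other 2 libraries are from day 1, where monocytes carry other class names, and are not used here. All mice were wild-type C57BL/6N. Lungs were perfused and dissociated, live cells were sorted, and each library pooled lung from 3 mice of 1 sex, so single animals cannot be seen. The hyperoxia libraries came from pups kept in 95% oxygen from day 1 to day 5 and then in room air until day 21, and the room air libraries came from pups kept in room air throughout. There was 1 female and 1 male library per treatment, and the study asked how recovery from this injury depends on sex.

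Classical monocytes are made in the bone marrow, leave it through the chemokine receptor CCR2 and circulate with high surface Ly6C. They enter tissue during injury, where they can give rise to macrophages and to cells with dendritic traits. Some lose Ly6C and become nonclassical monocytes, which stay in the vessel and depend on the nuclear receptor NR4A1. Interferons and glucocorticoids both induce well-known sets of genes in them.

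The class held 582 cells in female room air, 314 in male room air, 294 in female hyperoxia and 279 in male hyperoxia. Its cells were deep, with a median of 13161 to 14861 UMIs (unique molecular identifiers, 1 per counted transcript) per library and no cell under 3601. The summed counts that the tests use came to 3798987 to 8724741 UMIs per library. No cell barcode of the class was shared between classical monocytes of different libraries, and 7 were shared with a cell of another class in another library. Xist, the RNA of the inactive X chromosome, had a UMI in 88.5% of the female room air cells but in 48.6% of the female hyperoxia cells. The 4 Y-linked genes checked had a UMI in 0 cells of either female library and in 234 and 257 cells of the male hyperoxia and male room air libraries. Leaving out the female hyperoxia cells without Xist gave 148 called genes in the comparison of hyperoxia with room air, against 186 with all cells. Leaving out that library gave 74; a fit with 1 library left out has no sex covariate, and all 4 libraries fitted without it gave 29. The cause of the lower Xist detection was not tested.

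Lymphocyte transcripts were not spread evenly over the libraries. Cells with at least 2 UMIs of the 5 T cell markers (Cd3d, Cd3e, Cd3g, Trac, Trbc2) numbered 2 in female room air, 5 in male room air, 11 in female hyperoxia and 6 in male hyperoxia. These 24 cells held 85.0% of all T cell marker UMIs of the class, and Scrublet called 17 of them doublets. The summed T cell markers were 10.1 and 20.2 CPM (counts per 1000000 UMIs of the class in that library) in room air (female, male) and 58.9 and 35.8 CPM in hyperoxia. Without the 31 called doublets these sums were 8.69, 10.4, 8.40 and 3.29 CPM, in the same order. All 5 T cell markers were among the genes called higher, so counts of calls over gene lists are followed by the count without doublets.

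The defining markers were present at high levels. Ly6c2, which encodes the surface protein that defines these cells, stood at 870 CPM in female room air, 1190 in male room air, 916 in female hyperoxia and 982 in male hyperoxia. Ccr2, the receptor for the monocyte chemoattractant CCL2, stood at 796, 867, 527 and 671 CPM in the same order. F13a1, the coagulation factor XIII A chain, stood at 892, 650, 717 and 927 CPM. At least 1 of these 3 transcripts was found in at least 98.0% of the cells of each library, against 1.67% to 3.20% of general capillary endothelial cells, which should lack them. After thinning every cell to 2000 UMIs the ranges were 86.4% to 94.6% and 0.33% to 0.78%. Thinning left out no classical monocyte.

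Selected markers of other myeloid cells were at or near 0, but other neutrophil and interstitial macrophage markers and those of nonclassical monocytes were not. Ly6g of neutrophils reached at most 1.41 CPM, Siglecf of alveolar macrophages at most 0.704 CPM, C1qa of interstitial macrophages at most 1.05 CPM and Xcr1 of dendritic cells at most 0.263 CPM. The interstitial macrophage list of 8 genes summed to 939 to 1482 CPM, most of it Apoe (834 to 1371 CPM). The neutrophil list of 10 genes summed to 710 to 1209 CPM, with S100a8 at 270 to 664 CPM. The nonclassical monocyte list of 8 genes summed to 993 to 1175 CPM. Within it Nr4a1 stood at 269 to 302 CPM, Adgre4 at 221 to 254 CPM and Ace at 115 to 157 CPM.

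**Figure D1:**
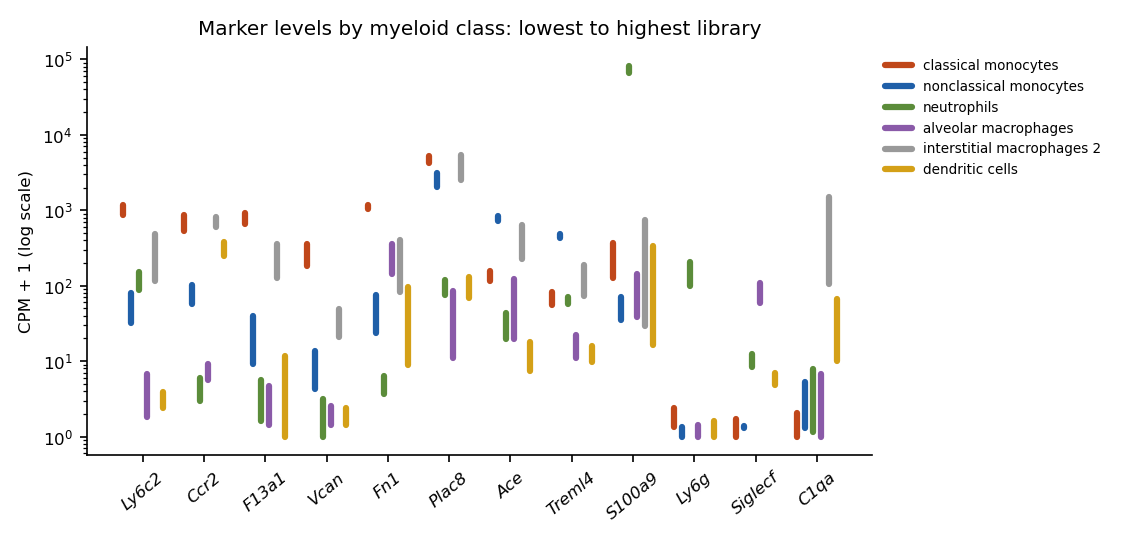
Levels of 12 marker genes (CPM + 1, log axis) in 6 myeloid classes; each bar runs from the lowest to the highest day 21 library with at least 20 cells of that class. Ly6c2, F13a1, Vcan and Fn1 are highest in classical monocytes, Ace and Treml4 in nonclassical monocytes, and Ccr2 overlaps with interstitial macrophages 2.

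Among 3017 genes with at least 50 CPM in every library, 7 were at least 2-fold above every other myeloid class compared, in each library where that class had at least 20 cells. By that minimum the first interstitial macrophage class was compared in 0 libraries, dendritic cells in 3 and basophils in 2. The 7 genes were Vcan, Hopx, Fn1, AI839979, F13a1, Ly6c2 and C3. The classes were made by clustering on expression, so these values describe the class and are no test. Vcan, a matrix proteoglycan, was 4.56 to 15.5 times the next class. Fn1, fibronectin, stood at 1049 to 1171 CPM, 2.92 to 4.91 times the next class. C3, the central complement component, was nearly level over the libraries, at 283 to 297 CPM. Hopx, a homeodomain protein better known from alveolar type 1 cells, stood at 233 to 296 CPM, 3.84 to 4.44 times the next class.

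Ccr2 did not set the class apart, at 0.871 to 1.22 times the highest other myeloid class compared. Its level reached 819 CPM in the second interstitial macrophage class, which held 27 to 53 cells per library. Among genes of at least 50 CPM in every library of classical monocytes the largest deficit against nonclassical monocytes was in Dusp16, a phosphatase of stress kinases, which was 13.4 to 22 times higher in nonclassical monocytes. Treml4 was 5.66 to 7.69 times higher there, Ace (angiotensin-converting enzyme) 5.31 to 6.30 times and Spn (CD43) 4.82 to 5.68 times. Zbtb16, the zinc finger protein PLZF, was 4.37 to 4.91 times higher in nonclassical monocytes.

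Classical monocytes made up a smaller share of the cells after hyperoxia in both sexes. They were 6.84% of cells with a class in female room air (exact binomial 95% interval 6.31 to 7.40) and 3.52% in female hyperoxia (3.13 to 3.94). In males they were 4.44% (3.97 to 4.94) and 3.06% (2.72 to 3.43). The ratio of hyperoxia to room air was 0.514 in females and 0.689 in males. An exact two-sided permutation test over the 4 libraries gave p = 0.333, which is the smallest value that 2 against 2 libraries allow. Intervals cover counting error only.

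The lower share depended on the cells it was counted against. Among immune cells alone the ratio was 0.626 in females and 1.04 in males, and among myeloid cells alone it was 0.975 and 1.07. Neutrophils also took a smaller share of all cells after hyperoxia, at 0.478 times room air in females and 0.890 times in males. Nonclassical monocytes stood at 0.842 times in females and 0.469 times in males. There were 0.630 classical monocytes per nonclassical monocyte in female room air and 0.385 in female hyperoxia, but 0.319 in male room air and 0.469 in male hyperoxia. The balance of both monocyte classes thus moved in opposite directions in the sexes, a difference that 1 library per sex and treatment cannot test.

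**Figure D2:**
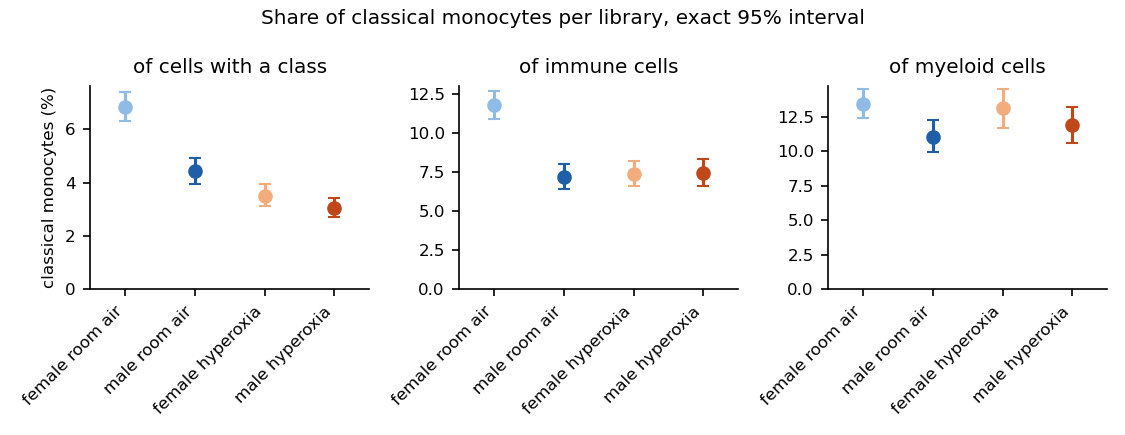
Share of classical monocytes per library (%) with the exact binomial 95% interval, out of cells with a class, immune cells and myeloid cells. Both hyperoxia libraries lie below both room air libraries in the left panel (3.52% and 3.06% against 6.84% and 4.44%), but not among myeloid cells.

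Within the class, hyperoxia was compared with room air by edgeR's quasi-likelihood test on counts summed per library, with sex as a covariate. It called 186 of 10553 genes at an adjusted p under 0.05 (1.76%), 108 higher (1.02%) and 78 lower (0.739%). This number rests on little replication: 1 residual degree of freedom was left, and the spread was borrowed across genes. With the 31 doublets left out the same test called 28 genes (0.27%), 16 higher and 12 lower, all 28 of them among the 186. DESeq2 called 4 of 18739 genes (0.0213%): Cxcl10, Fosb, Il7r and Fkbp5. At an unadjusted p under 0.05 edgeR had 986 genes with all cells and 796 without doublets, and DESeq2 had 137.

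More genes called higher than called lower had a much higher level outside the myeloid cells, a difference that was not tested. Of the 108 genes called higher, 73 had at least 4-fold more CPM in some class outside the myeloid cells, and for 48 of those that class was a lymphocyte class. Of the 78 genes called lower, 18 did, and for 6 of those it was a lymphocyte class. The share of all 10553 tested genes that meet this rule was not computed, so these counts have no background beside them. Without doublets 30 of the 73 had too few counts to be tested. Of the 35 other genes called higher, all 35 kept their sign without doublets and 9 were still called, with a median ratio of the new to the old log2 change of 1.03. Of the 60 such genes called lower, all 60 kept their sign and 7 were still called, with a median ratio of 0.97. The estimated spread also changed, since the prior degrees of freedom were 366 with all cells and 11 without doublets. A call lost without doublets, here or below, thus need not mean a smaller log2 change.

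**Figure D3:**
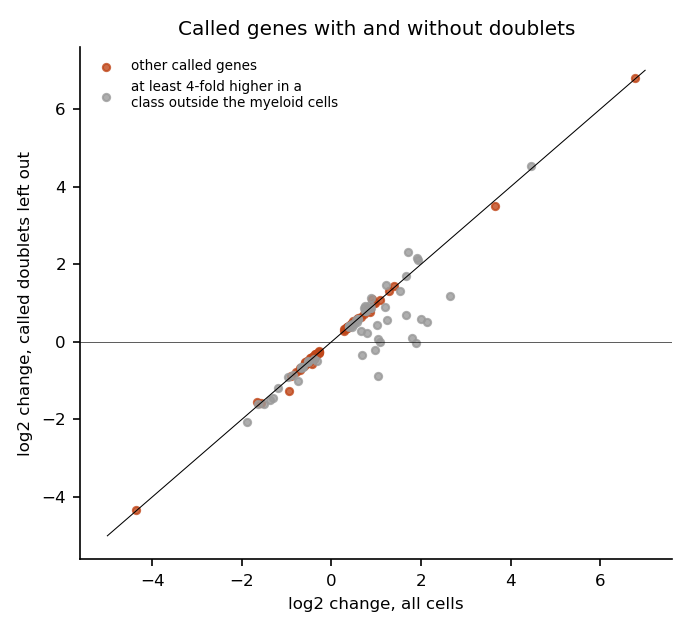
Log2 change (hyperoxia over room air) of called genes with all cells (x axis) and with called doublets left out (y axis); the line marks equality. The 95 genes without a 4-fold higher class outside the myeloid cells lie along the line. Of the 60 others that could still be tested, in grey, some fall towards 0 (such as Trbc2 and Ets1), but most lie near the line.

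Among genes that glucocorticoids induce, calls were in 1 direction. Of 20 genes on this list 16 were tested, 6 were called higher and 0 lower, and 14 of the 16 had a positive log2 change, with a median of 0.30 against 0.00 over all genes. Over all 10553 tested genes 1.02% were called higher and 0.739% lower, and 5357 had a positive log2 change. These shares are the background for the counts of every list below. Fkbp5 encodes a co-chaperone that binds and restrains the glucocorticoid receptor. It stood at 222 CPM in female room air, 164 in male room air, 369 in female hyperoxia and 379 in male hyperoxia. Both hyperoxia libraries were above both room air libraries. Its log2 change was 0.98 (SE 0.0891, adjusted p = 9.11e-21), 1.97-fold, and it was called under all 13 alternatives tried (another test, scaling or filter, no covariate, each library or sets of cells left out). Of the 13, a stricter cell filter (at least 1000 genes, at most 10% mitochondrial UMIs) left out 0 classical monocytes. It therefore repeats the main fit, here and in every later count out of 13.

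Klf9, a transcription factor, stood at 66.6 and 50.7 CPM in room air (female, male) and at 107 and 101 CPM in hyperoxia, with a log2 change of 0.85 (SE 0.108, adjusted p = 4.24e-11). Zbtb16 stood at 75.5 and 55.3 CPM in room air and at 115 and 103 CPM in hyperoxia, with a log2 change of 0.76 (SE 0.105, adjusted p = 2.39e-09). For both, the treatments did not overlap, and each was called in 12 of 13 alternatives. The share of cells with a UMI moved too. Fkbp5 was found in 80.9% and 78.0% of room air cells and in 92.5% and 94.3% of hyperoxia cells, and at 2000 UMIs per cell in 33.3%, 27.7%, 49.7% and 49.8%. In general capillary cells Fkbp5 was found in 24.2% and 22.1% of room air and 34.8% and 36.1% of hyperoxia cells, and at 2000 UMIs in 7.09%, 8.22%, 12.1% and 13.8%. Klf9 and Zbtb16 were each at least 4-fold higher in myofibroblasts than in classical monocytes. They were found in at least 89.7% and 95.1% of general capillary cells of each library. At 2000 UMIs Klf9 was found in 58.7% and 54.8% of room air and 68.2% and 67.6% of hyperoxia capillary cells. Zbtb16 at 2000 UMIs was also found in more capillary cells after hyperoxia in both sexes. The part of RNA from other cells in the rises of Klf9 and Zbtb16 was not tested.

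Dusp1 (0.29), Nfkbia (0.35) and Ddit4 (0.44), in log2 change, completed the 6. Dusp1 is a phosphatase of MAP kinases, Nfkbia the inhibitor of NF-kB, and Ddit4 an inhibitor of mTORC1 signalling. Ddit4 overlapped between the treatments, at 33.1 and 59.4 CPM in room air and 51.6 and 69.0 CPM in hyperoxia. Without doublets 3 of the list remained called: Fkbp5 (adjusted p = 0.0026), Klf9 (adjusted p = 0.00612) and Zbtb16 (adjusted p = 0.00637). Tsc22d3 (GILZ), another gene of the list, stood at 280 and 295 CPM in room air and 327 and 333 CPM in hyperoxia, and was not called.

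Nonclassical monocytes and neutrophils also had higher Fkbp5 after hyperoxia, by 1.15 (adjusted p = 3.03e-05) and 0.82 (adjusted p = 0.0258) on the log2 scale. The response of classical monocytes minus that of nonclassical monocytes was -0.15 (SE 0.0709, adjusted p = 0.492) for Fkbp5, 0.16 (SE 0.11, adjusted p = 0.681) for Klf9 and 0.05 (SE 0.0852, adjusted p = 0.91) for Zbtb16. These comparisons come from the same 4 libraries.

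Fosb, an immediate-early gene, rose under every alternative tried. The dissociation and heat shock list, which holds genes that cell isolation itself can induce, had 27 members tested, 4 called higher and 1 lower, with a median log2 change of 0.04. Fosb, an AP-1 subunit, stood at 166 and 130 CPM in room air and 237 and 243 CPM in hyperoxia, a log2 change of 0.72 (SE 0.0915, adjusted p = 4.24e-11) that was called under all 13 alternatives. Jun (0.46), Jund (0.38) and Dusp1 (0.29) were the others. Without doublets 1 of the list was called higher and 0 lower, with Jun at an adjusted p of 0.0531, Jund at 0.0587, Dusp1 at 0.277 and Hspa5 at 0.15. Fos, the most abundant of the family, had a log2 change of 0.14 and was not called. Hspa5, the endoplasmic reticulum chaperone BiP, fell by 0.36 on the log2 scale. Manf, a secreted protein of the endoplasmic reticulum stress response, fell by 0.56 and remained called without doublets (adjusted p = 0.0293).

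**Figure D4:**
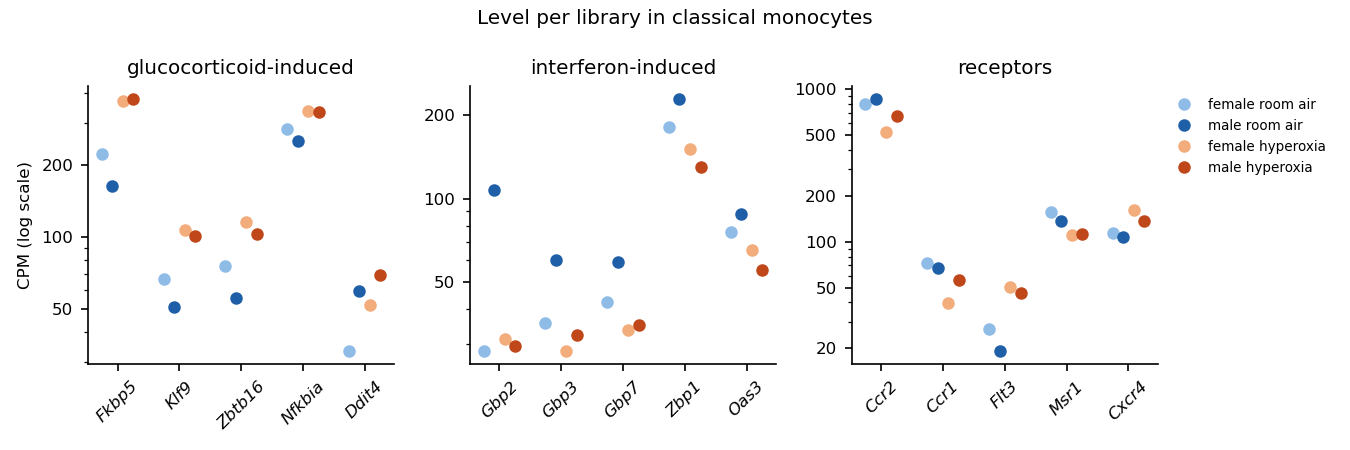
Level (CPM, log axis) of 15 genes in classical monocytes of each library, 1 point per library. Fkbp5, Klf9 and Zbtb16 are higher in both hyperoxia libraries, Gbp2 peaks in male room air (108 CPM), and Ccr2 and Ccr1 are lower in both hyperoxia libraries.

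Some interferon-induced genes were lower after hyperoxia, and Gbp2, Gbp3, Gbp7, Iigp1 and Cxcl9 were each highest in the male room air library. Of the 17 tested genes on the interferon-gamma list 5 were called lower (Gbp2, Gbp3, Gbp7, Iigp1, Cxcl9) and 1 higher (Cxcl10), against 0.739% and 1.02% of all tested genes. The list had a median log2 change of -0.36. The median of the within-sex log2 ratios was -0.01 in females and -0.69 in males. Without the male room air library the list's median was -0.08 and 1 gene was called lower. Without doublets the median was -0.35, with Cxcl9 called lower and Cxcl10 higher.

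The promoters of the guanylate-binding protein genes and of the neighbouring chemokine genes Cxcl9 and Cxcl10 are shown because interferon-gamma induces all of them, yet Cxcl10 was called higher and the others lower. Sequences are RefSeq promoter windows of 300 bases (GRCm38.p6), written 5′ to 3′ on the gene's strand. Capitals mark matches on either strand to GAAANNGAAA, the core of the interferon-stimulated response element, or to TTCNNNGAA, the core of the gamma-activated site. The first motif is found in 3.44% and the second in 8.30% of 32851 such windows. A match is not evidence of binding, and no match is not evidence that a response element is absent.
Cxcl9, chr5:92328030-92328329, minus strand: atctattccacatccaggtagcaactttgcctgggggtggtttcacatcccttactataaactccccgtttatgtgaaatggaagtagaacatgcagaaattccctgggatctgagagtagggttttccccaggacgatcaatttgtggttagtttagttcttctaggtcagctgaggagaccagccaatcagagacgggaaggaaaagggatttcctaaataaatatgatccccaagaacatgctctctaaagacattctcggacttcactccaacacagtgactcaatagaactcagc
Cxcl10, chr5:92348840-92349139, minus strand: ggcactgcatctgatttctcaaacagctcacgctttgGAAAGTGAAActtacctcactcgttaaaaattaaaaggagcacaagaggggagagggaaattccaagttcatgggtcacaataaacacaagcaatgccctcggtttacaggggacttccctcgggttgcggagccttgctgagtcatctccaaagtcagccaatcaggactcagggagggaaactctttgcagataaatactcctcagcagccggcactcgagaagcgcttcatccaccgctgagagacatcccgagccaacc
Gbp2, chr3:142620413-142620712, plus strand: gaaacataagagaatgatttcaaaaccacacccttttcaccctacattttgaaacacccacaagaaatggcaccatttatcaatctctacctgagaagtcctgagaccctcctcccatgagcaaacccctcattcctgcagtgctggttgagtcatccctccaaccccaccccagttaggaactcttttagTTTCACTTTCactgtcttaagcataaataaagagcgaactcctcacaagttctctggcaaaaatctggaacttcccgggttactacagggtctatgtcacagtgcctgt
Gbp3, chr3:142559794-142560093, plus strand: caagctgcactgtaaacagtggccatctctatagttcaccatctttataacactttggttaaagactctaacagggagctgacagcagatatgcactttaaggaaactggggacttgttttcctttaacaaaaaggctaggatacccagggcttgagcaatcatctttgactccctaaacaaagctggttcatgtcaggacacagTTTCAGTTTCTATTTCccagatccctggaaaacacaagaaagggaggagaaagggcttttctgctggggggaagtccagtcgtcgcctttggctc
Gbp7, chr3:142530086-142530385, plus strand: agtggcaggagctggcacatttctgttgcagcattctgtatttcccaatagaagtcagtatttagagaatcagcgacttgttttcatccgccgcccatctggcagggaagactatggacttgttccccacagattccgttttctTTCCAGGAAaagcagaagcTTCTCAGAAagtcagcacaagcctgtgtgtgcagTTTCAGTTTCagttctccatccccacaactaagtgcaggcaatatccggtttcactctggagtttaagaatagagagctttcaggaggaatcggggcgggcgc

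The 3 Gbp windows and the Cxcl10 window each hold the first motif, Gbp7 also holds the second, and the Cxcl9 window holds neither. A second RefSeq window of Gbp3 holds neither motif.

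Gbp2, a GTPase that attacks vacuoles of pathogens, stood at 28.1 CPM in female room air, 108 in male room air, 31.2 in female hyperoxia and 29.5 in male hyperoxia. The male room air library was high and the other 3 were alike. The log2 change of -0.90 (SE 0.149, adjusted p = 1.32e-06) became 0.16 without that library. Gbp3 stood at 35.6, 59.9, 28.2 and 32.1 CPM and Gbp7 at 42.4, 59.2, 33.6 and 35.0 CPM in the same order. For both, the female libraries differed in the same direction as the male ones but by less (log2 ratio -0.33 in each).

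Iigp1 had 20 and 17 UMIs in the room air libraries and 0 in both hyperoxia libraries, at least 7.34-fold lower against a floor of 3 UMIs over the hyperoxia group. Those 37 UMIs came from 9 cells, and 45.9% of them from 1 cell. Iigp1 was 68.0-fold higher in arterial cells, and 38.9% and 50.2% of general capillary cells had an Iigp1 UMI in room air against 30.8% and 27.5% in hyperoxia. The part of endothelial RNA in this difference was not tested. Cxcl9 stood at 4.47 and 19.3 CPM in room air and at 0.939 and 0 CPM in hyperoxia, but its UMIs came from 6 cells and 68.4% of them from 1 cell. Cxcl10, a chemokine for T cells, went the other way, from 11 and 16 UMIs in room air (female, male) to 92 and 123 UMIs in hyperoxia. Its log2 change was 3.66 (SE 0.275, adjusted p = 3.4e-29), and it was called under all 13 alternatives. Cells with a Cxcl10 UMI were few in every library: 6 of 582 and 8 of 314 in room air and 12 of 294 and 6 of 279 in hyperoxia. Changes of Iigp1, Cxcl9 and Cxcl10 are therefore changes in few cells of each library.

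Of 37 tested members of the type I interferon list 6 were called lower, among them Zbp1, Oas3, Rtp4, Oasl2 and Ifi27l2a, 1 higher (Rsad2), and 29 had a negative log2 change, with a median of -0.20. Over all 10553 tested genes 0.739% were called lower and 1.02% higher, and 5196 had a negative log2 change. Zbp1, a sensor of Z-form nucleic acids, stood at 182 CPM in female room air, 230 in male room air, 151 in female hyperoxia and 130 in male hyperoxia (log2 change -0.51, SE 0.094, adjusted p = 2.14e-05). Without doublets 0 members of the list were called, although the median stayed at -0.18. Without the male room air library the median was -0.17, with 0 called lower.

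Of 19 tested class I presentation genes 3 were called lower: Tap1 (the peptide transporter, log2 change -0.39), Psmb9 (an immunoproteasome subunit, -0.34) and Calr (calreticulin, -0.36). Of all tested genes 0.739% were called lower. Without doublets 0 of the list were called. The log2 changes of Tap1, Psmb9 and Calr were then -0.39, -0.33 and -0.36, and their adjusted p was 0.522, 0.498 and 0.155. Without the male room air library the list's median was -0.01, against -0.18 with it. Of 8 tested class II genes Ciita, the master regulator of the class, was called lower, at 4.58 and 5.20 CPM in room air against 0.469 and 2.9 CPM in hyperoxia (log2 change -1.64, adjusted p = 0.0483). It was called in 3 of 13 alternatives, and without doublets 0 of the list were called (Ciita at a log2 change of -1.59 and an adjusted p of 0.45). Its log2 change was -0.70 without the female hyperoxia library (adjusted p = 0.996) and -3.31 without the male hyperoxia library (adjusted p = 0.0099). Ciita was 29.4-fold higher in B cells than in classical monocytes, and the part of B cell RNA was not tested. The class II list had a median log2 change of -0.37, and medians of the within-sex log2 ratios of -0.03 in females and -0.63 in males. Without the male room air library its median was -0.05.

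Ccr1 and Ccr2, chemokine receptors that guide monocytes to inflamed tissue, fell. Of 26 tested trafficking and adhesion genes 3 were called lower and 1 higher, against 0.739% and 1.02% of all tested genes. The list had a median log2 change of -0.07. Ccr2 was lower in both hyperoxia libraries (527 and 671 CPM) than in both room air libraries (796 and 867 CPM), with a log2 change of -0.46 (SE 0.0786, adjusted p = 3.49e-06). It was called in 8 of 13 alternatives, and without the female hyperoxia library its log2 change was -0.28 and not called (adjusted p = 0.963). Without doublets it remained called (adjusted p = 0.0382). Ccr2 was found in 95.0% and 97.1% of room air cells and in 92.2% and 92.5% of hyperoxia cells, and at 2000 UMIs per cell in 69.1%, 71.7%, 53.4% and 64.2%. Ccr2 was also lower after hyperoxia in nonclassical monocytes (log2 change -0.55, adjusted p = 0.0253), and the difference between the classes was 0.10 (SE 0.109, adjusted p = 0.832).

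Ccr1 stood at 72.4 and 67.1 CPM in room air and 39.9 and 55.8 CPM in hyperoxia (log2 change -0.55, SE 0.123, adjusted p = 0.00153). Cxcr4, the receptor that retains cells in the marrow, rose from 114 and 108 CPM to 161 and 136 CPM (log2 change 0.44, SE 0.0963, adjusted p = 0.00118). The other 22 members were not called. Without doublets 2 of the list were called lower, Ccr2 among them, and 0 higher, with Ccr1 at an adjusted p of 0.297 and Cxcr4 at 0.127.

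The defining markers Ly6c2 and F13a1 were not called between hyperoxia and room air. Ly6c2 had a log2 change of -0.08 (SE 0.0761, adjusted p = 0.866) and F13a1 of 0.11 (SE 0.0807, adjusted p = 0.766). F13a1 moved in opposite directions in the sexes, by -0.31 in females and 0.51 in males. Vcan did so too, by -0.99 and 0.13, and was called lower (log2 change -0.43, adjusted p = 0.00147). Vcan was the single call among 17 tested genes of coagulation and matrix remodelling, whose median was 0.04. Without doublets its log2 change was -0.39 and it was not called (adjusted p = 0.639). Chil3, a chitinase-like protein, stood at 430 and 578 CPM in room air and 475 and 953 CPM in hyperoxia. It was called higher (log2 change 0.45, adjusted p = 1.45e-05), but had a log2 change of -0.09 without the male hyperoxia library. Without doublets its log2 change was 0.49 and it was not called (adjusted p = 0.15). In alveolar macrophages Chil3 stood at 8039 to 10566 CPM, and the part of their RNA in this change was not tested. Ly6c2 shares much of its sequence with Ly6c1, and the Gbp and Ly6 families hold close copies, so counts may be split among members.

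Inflammatory cytokines changed in both directions. Of 26 tested genes 4 were called higher (Ccl3, Ccl5, Ccl9, Nfkbia) and 1 lower (Il1b), against 1.02% and 0.739% of all tested genes. Without doublets Ccl9 remained called higher and Il1b lower, with Ccl3 and Nfkbia at an adjusted p of 0.155 and Ccl5 at 0.849. Ccl9 stood at 237 and 292 CPM in room air and 360 and 364 CPM in hyperoxia (log2 change 0.48, SE 0.0871, adjusted p = 1.45e-05) and remained called without doublets (adjusted p = 0.0278). Il1b stood at 143 and 92.5 CPM in room air and 98.3 and 72.4 CPM in hyperoxia (log2 change -0.44, adjusted p = 0.0031). The treatments overlapped for Il1b, since female hyperoxia lay above male room air. Ccl5, a lymphocyte chemokine, stood at 1.15, 16.8, 31.2 and 2.37 CPM in the order female room air, male room air, female hyperoxia, male hyperoxia. Its treatments overlapped, and without the female hyperoxia library its log2 change was -1.73.

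Among receptors for debris and microbes 3 of 27 were called lower, against 0.739% of all tested genes. Msr1, a scavenger receptor, stood at 156 and 136 CPM in room air and 111 and 112 CPM in hyperoxia (log2 change -0.38, adjusted p = 0.0114). Cd300lf (-0.42) and Lyz1 (-1.19) were the others. Without doublets Lyz1 alone remained called (adjusted p = 0.0371). Msr1 (log2 change -0.36, adjusted p = 0.222) and Cd300lf (-0.40, adjusted p = 0.297) did not, and each was called in 3 of 13 alternatives. Lyz1 was not called without the female room air library (log2 change -0.60, adjusted p = 0.701) or without the male hyperoxia library (adjusted p = 0.112), had 16.8% of its UMIs in 1 cell, and was 98.3-fold higher in alveolar type 2 cells. Lyz2, the main lysozyme of these cells at 17512 to 19707 CPM, had a log2 change of 0.12 and was not called with all cells.

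Flt3, the receptor for the growth factor of dendritic cells and their progenitors, stood at 27.0 and 19.1 CPM in room air and 50.5 and 46.3 CPM in hyperoxia (log2 change 1.08, SE 0.149, adjusted p = 1.87e-09). It was called in 12 of 13 alternatives, doublets left out included (adjusted p = 0.00743). Flt3 was found in 17.4% and 16.2% of room air cells and in 33.0% and 31.5% of hyperoxia cells, against at most 0.139% of general capillary cells. The other dendritic cell markers stayed at or under 8.94 CPM. Xcr1, Clec9a, Itgae and Zbtb46 reached at most 0.263, 1.45, 2.11 and 3.29 CPM, and Ccr7, also called higher, at most 4.47 CPM. Cd209a stood at 8.94 and 1.87 CPM in room air (female, male) and 5.87 and 2.37 CPM in hyperoxia. Ccr7 had UMIs in 18 cells and was 137-fold higher in T cells than in classical monocytes. It had too few counts to be tested without doublets. Cebpa, a transcription factor of myeloid progenitors, rose from 111 and 107 CPM to 158 and 124 CPM (log2 change 0.40, adjusted p = 0.0055), and Ahr, the aryl hydrocarbon receptor, fell from 125 and 97.1 CPM to 71.8 and 81.1 CPM (log2 change -0.52, adjusted p = 1.77e-04). These were the calls among 27 tested myeloid transcription factors, whose median was 0.00. Neither was called without doublets (adjusted p = 0.166 and 0.202), and Cebpa was called in 4 of 13 alternatives and in 0 of the 4 that leave out a library.

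S100a9, a subunit of the neutrophil protein calprotectin, stood at 249 and 125 CPM in room air and 284 and 366 CPM in hyperoxia (log2 change 0.85, SE 0.0969, adjusted p = 9.92e-14), with 12.2% of its UMIs in 1 cell. Its within-sex log2 ratios were 0.19 in females and 1.54 in males, and it was called in 7 of 13 alternatives. It was not called without the male room air library (log2 change 0.43, adjusted p = 0.154) or without the Xist-free cells of female hyperoxia (0.37, adjusted p = 0.475). S100a9 also stood at 38.6 to 121 CPM in general capillary cells, which should lack it. S100a9 and Flt3 were the calls among 10 tested granule and progenitor genes, whose median was 0.15, and both remained called without doublets. Its partner S100a8 stood at 575, 427, 270 and 664 CPM and was not called (log2 change -0.20). The neutrophil marker Retnlg, also called higher, reached 27.0 CPM, and the summed neutrophil markers were 1004, 710, 775 and 1209 CPM over the libraries (female room air, male room air, female hyperoxia, male hyperoxia). Whether these transcripts came from neutrophils captured with the monocytes was not tested.

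Other rises named by the rule were Cdk5rap1 (10.2 and 13.3 CPM in room air, 27.9 and 27.9 in hyperoxia, log2 change 1.29, adjusted p = 2.44e-08), Serpinb8 (0.94), Dyrk3 (0.81) and Lmo1 (0.65). Cdk5rap1 encodes an enzyme that modifies transfer RNA and was called in 12 of 13 alternatives. Without doublets Serpinb8 (adjusted p = 0.155), Dyrk3 (0.156) and Lmo1 (0.189) were not called, and without the female hyperoxia library the log2 change of Dyrk3 was 0.49. Other falls named by the rule were Calhm6 (-0.78), Naa25 (-0.71), Ly6i (-0.70), Cfb (complement factor B, -0.69), Lilr4b (-0.61), Gvin1 (-0.61), Aif1 (-0.59), Nlrp1b (-0.58) and Gcnt2 (-0.55). Without doublets Ly6i (adjusted p = 0.0436) and Aif1 (0.0374) remained called, and the other 7 did not, at adjusted p from 0.116 to 0.307. The log2 change of Calhm6 was -0.26 without the male room air library (adjusted p = 0.934) and -1.32 without the female room air library. That of Cfb was -0.44 without the male hyperoxia library, and that of Gcnt2 was -0.29 without the female hyperoxia library. Aif1 stood at 115 and 116 CPM in room air and 77.4 and 74.5 CPM in hyperoxia, with no overlap. Tlr1 (-1.36) was among the falls of genes higher outside the myeloid classes. Without doublets its log2 change was -1.50 and it was not called (adjusted p = 0.156).

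Among genes higher outside the myeloid classes with at least 20 UMIs in both hyperoxia libraries, the largest rises were those of the lymphocyte genes Camk4 (log2 change 2.88), Lef1 (2.83) and Il7r (2.65). Without that limit Cd8b1 (4.88, in 5 cells) and Ebf1 (4.46, in 22 cells) lay above them, and both were named after their values were seen. Il7r had 42 and 12 UMIs in room air and 120 and 67 UMIs in hyperoxia, from 38 cells in all, and had too few counts to be tested once doublets were left out. Trbc2, at 5.50 and 7.07 CPM in room air and 26.8 and 17.4 CPM in hyperoxia, had a log2 change of 1.88 with all cells and -0.04 without doublets.

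Apoe, an apolipoprotein of macrophages, was the single call among 20 tested lipid handling genes (log2 change 0.28, adjusted p = 0.0126), whose median was -0.03. Without doublets its log2 change was 0.33 and it was not called (adjusted p = 0.113). Over the marker lists of cell types, 5 of 5 tested T cell markers, 1 of 3 B cell markers (Cd79a), 2 of 6 neutrophil markers (S100a9, Retnlg), 2 of 4 dendritic cell markers (Flt3, Ccr7) and 1 of 3 interstitial macrophage markers (Apoe) were called higher. Of all tested genes 1.02% were called higher and 0.739% lower. Of the 10 classical monocyte markers Chil3 was called higher and Ccr2 and Vcan lower, and the remaining marker lists had 0 calls. Without doublets the T cell, B cell and interstitial macrophage lists had 0 calls, with 1, 3 and 3 members tested. The T cell marker still tested was Trbc2 (log2 change -0.04). Cd79a had a log2 change of 2.17 without doublets, against 1.92 with all cells. S100a9, Retnlg and Flt3 remained called higher without doublets, and Ccr2 remained called lower. Ccr7, which was 137-fold higher in T cells, could not be tested then.

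Of 17 tested p53 targets, 20 antioxidant NRF2 targets, 21 hypoxia and glycolysis genes, 19 cell cycle genes and 10 clock genes, 0 were called, with medians of 0.07, 0.03, 0.01, 0.15 and 0.09 on the log2 scale. With 1.76% of all tested genes called, 0 calls in lists of this size is near the background and is no result about these lists. In the self-test on simulated counts this comparison recovered 68.0% of genes changed by 1 on the log2 scale. The simulation had a fixed spread above the fitted one and no sex effect, and changed only genes above a minimum count. Its recovery therefore does not carry over directly to these lists, and smaller changes in them may be missed. Mki67 was found in 6.01% and 6.69% of room air cells and in 8.16% and 7.53% of hyperoxia cells.

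**Figure D5:**
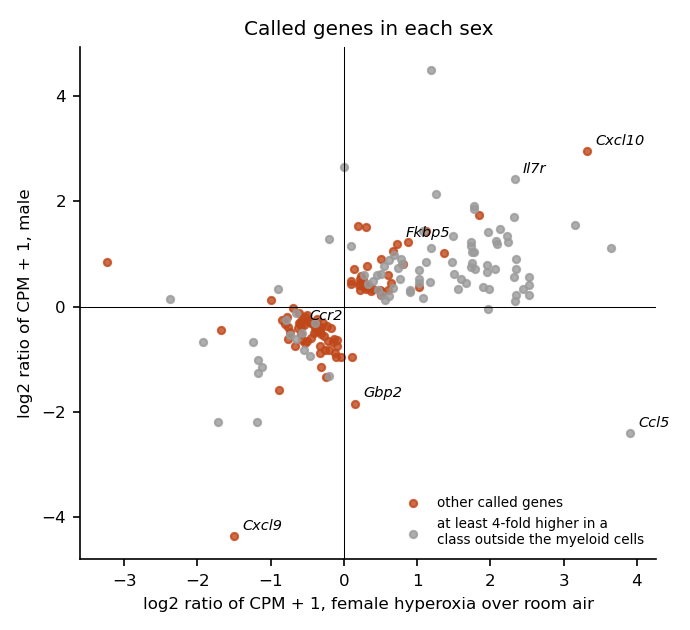
Log2 ratio of CPM + 1, hyperoxia over room air, in females (x axis) and males (y axis) for the 186 called genes. Most lie in the quadrants of equal sign (105 of 108 called higher and 72 of 78 called lower), which the call itself favours; Gbp2 and Ccl5 do not.

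The response of classical monocytes was set against that of nonclassical monocytes in a test of the difference itself, which called 65 of 11748 genes (0.553%). F13a1 had the smallest adjusted p. It rose in nonclassical monocytes from 8.09 and 8.57 CPM to 22.4 and 38.8 CPM, and the response in classical minus nonclassical monocytes was -1.66 (SE 0.122, adjusted p = 3.66e-04). In classical monocytes F13a1 stood at 650 to 927 CPM. Whether RNA of classical monocytes had a part in the rise in nonclassical monocytes was not tested. Cxcl10 differed by 6.62 (adjusted p = 7.7e-04), since it stood at 5.36 and 2.49 CPM in room air and 1.27 and 0 CPM in hyperoxia in nonclassical monocytes. S100a9 differed by 1.16 (adjusted p = 0.00149). In nonclassical monocytes it stood at 33.6 to 70.2 CPM, against 38.6 to 121 CPM in general capillary cells, which should lack it. Plac8 differed by 0.36 (adjusted p = 0.00705), with 2629 and 3084 CPM in room air and 2014 and 2117 CPM in hyperoxia in nonclassical monocytes. Dach1, a transcriptional co-regulator, differed by -3.24 (adjusted p = 0.00711), with 4.15 and 5.78 CPM in room air and 25.0 and 19.1 CPM in hyperoxia in nonclassical monocytes. Dach1 was 262-fold higher in the capillary class that the annotation names aCap than in classical monocytes. In nonclassical monocytes the endothelial marker Cdh5 ranged over the libraries from 9.95 to 54.7 CPM and Cldn5 reached 73.0 CPM, and the part of endothelial RNA in this difference was not tested.

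Against neutrophils the same test called 19 of 11787 genes (0.161%). Zfyve9 differed by -2.07, Adgre4 by -2.05 and Bcl2 by -2.39, and Ifitm1 and Cxcl10 by 1.93 and 4.30. Zfyve9, Adgre4 and Bcl2 were at 3.33 to 5.48 CPM in room air neutrophils and 12.5 to 22.4 CPM in hyperoxia neutrophils. Adgre4, a marker of nonclassical monocytes, stood there at 927 to 1043 CPM. Whether monocyte RNA in neutrophil barcodes had a part in these differences was not tested. Ifitm1, an interferon-induced membrane protein, rose in classical monocytes from 17.5 and 16.4 CPM to 41.3 and 36.9 CPM (log2 change 1.22, SE 0.163, adjusted p = 3.59e-10), while in neutrophils it stood at 2764 and 2643 CPM in room air and 1527 and 2065 CPM in hyperoxia.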

How the data were processed

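The deposited values were whole-number UMI counts per gene and barcode, made by the authors with Cell Ranger 7.0.1 per the file headers of the day 21 matrices, while the submitters' processing notes name Cell Ranger 6.0.0, Seurat 4.1.1 and mm10. Cell classes are the authors' deposited annotation. Whether doublets were removed before deposit is not given in the sources used here. Counts were summed per library and class, filtered with filterByExpr (minimum count 10), scaled with TMM and tested with edgeR 4.0.16 (R 4.3.3, limma 3.58.1), with Benjamini-Hochberg adjustment. DESeq2 1.42.0 was an alternative. Doublets were called per library by Scrublet in scanpy 1.11.5. Libraries are pools, so p-values do not cover the spread between single mice. The main fit of classical monocytes had 1 residual and 366 prior degrees of freedom. Its p-values thus rest mostly on a spread borrowed across genes, and little on each gene's own spread between these 4 libraries. CPM are counts per 1000000 UMIs of the class in a library. The response difference used library and class by sex as covariates. The fits were tested on simulated data.

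The class, the gene lists and the markers were chosen with earlier results of these data known. Named genes were the 12 largest rises and falls among called genes with equal sign in both sexes and at least 20 UMIs in each library of the higher side, leaving out mitochondrial, ribosomal and haemoglobin genes, unnamed models and genes at least 4-fold higher outside the myeloid classes, from which the 3 largest of each direction were taken. Called members of the 18 lists, the defining markers, the 5 smallest adjusted p of each response difference, and, for identity, the 20 highest and 10 lowest genes with at least 50 CPM were added. Called genes of the 15 marker lists, and members of lists that were not called, were named after their values were seen. Leaving out cells with lymphocyte UMIs or without Xist was chosen after seeing the data. Some genes that this rule names are not reported here.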

Additional observations from a re-analysis of the deposited data

Results flagged for a closer look

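Responses that differed between classes by the test of the difference itself were, against nonclassical monocytes, F13a1 (-1.66), Cxcl10 (6.62), S100a9 (1.16), Plac8 (0.36) and Dach1 (-3.24), and against neutrophils Zfyve9 (-2.07), Cxcl10 (4.30), Ifitm1 (1.93), Adgre4 (-2.05) and Bcl2 (-2.39), all as log2 response in classical monocytes minus that in the other class.

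Some results moved in opposite directions in the sexes, and that difference was not tested, since each sex had 1 library per treatment. The number of classical monocytes per nonclassical monocyte changed by -0.245 in females and 0.150 in males. The log2 ratio of hyperoxia to room air was 0.15 in females and -1.84 in males for Gbp2, 3.91 and -2.40 for Ccl5, and -0.99 and 0.13 for Vcan.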

How the results depend on the processing

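The count of genes called in classical monocytes (186, with 108 higher and 78 lower) moved with most choices. It was 4 (4 and 0) with DESeq2, 29 (23 and 6) with no sex covariate, 28 (16 and 12) with doublets left out, 77 (50 and 27) with equal cells per library and 16 (10 and 6) without cells holding lymphocyte marker UMIs; 51 were lower with upper-quartile scaling and 47 without the Xist-free female hyperoxia cells. Leaving out 1 library, with no sex covariate, gave 74 to 125 calls, 51 to 72 higher and 23 to 53 lower; 48 of the 74 without female hyperoxia, 72 of the 105 without male hyperoxia and 81 of the 108 without male room air were among the 186. The count for classical against nonclassical monocytes (65) was 3 with DESeq2, 345 with no filter, 33 with no sex term, 114 without doublets (32 shared), 304 with equal cells, 260 without lymphocyte marker cells, 180 without Xist-free cells and 102 to 229 with 1 library left out. The count against neutrophils (19) was 54 with upper-quartile scaling, 145 with no filter, 33 with no sex term, 63 without doublets (6 shared), 43 with the stricter cell filter, 122 with equal cells, 330 without Xist-free cells and 23 to 76 with 1 library left out. The cause of these shifts was not tested.

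With 1 library left out the log2 change ran from -1.84 to 0.16 for Gbp2, -0.30 to 0.01 for Plac8, -0.34 to 0.17 for Ly6c2 (the upper value without male room air for these), -0.10 to 0.33 for F13a1, -0.09 to 0.95 for Chil3 (the lower value without male hyperoxia for both), -0.18 to 0.11 for Bcl2 and -1.73 to 3.91 for Ccl5 (the lower value without female hyperoxia). F13a1 was at -0.07 and Bcl2 at 0.03 without male room air. The log2 change of Bcl2 was 0.01 with upper-quartile scaling and 0.06 with equal cells or without Xist-free cells. That of Ccl5 was -0.89 without lymphocyte marker cells and -1.43 without Xist-free cells, and that of Trbc2 was -0.04 without doublets. The share ratio was 0.626 in females and 1.04 in males among immune cells, and 0.975 and 1.07 among myeloid cells. The sex covariate pairs each hyperoxia library with the room air library of its sex, and dropping this pairing gave the 29 calls above.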
